A study of Homo sapiens with 16 samples.

Results

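The 6p21 gene block is a stretch of the short arm of chromosome 6 that surrounds the major histocompatibility complex (MHC), and its genes were followed here in LNCaP cells with and without p53. The members were the tested genes whose start lies between 30 and 40 Mb of chromosome 6 (GRCh38), without the HLA, TAP, PSMB, VARS, HSPA1 and ribosomal protein genes and without CDKN1A and FKBP5. They numbered 170 of the 18549 tested genes. The file lists 447 genes in the window, of which 391 remained after the excluded symbols and 221 of these did not pass the filter on low counts. Of the 170 members 140 are protein coding, 12 are antisense and 5 are long intergenic transcripts. The window was chosen by the p53 KO against WT differences of its genes in these libraries, many of which were lower in p53 KO cells, so every p53 KO against WT value below is a description and carries no test.

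The block is known as one of the most gene-dense stretches of the genome. Beside the classical MHC genes it holds genes with no role in antigen presentation, for chromatin regulators, splicing proteins, chaperones, tubulin and stress kinases, many of them transcribed from shared or adjoining promoters. p53 is a transcription factor that induces genes of cell cycle arrest and apoptosis after stress, and GCN2 is a kinase that senses amino acid shortage and slows translation through eIF2. GCN2iB is an inhibitor of GCN2.

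LNCaP is a human prostate cancer line that depends on androgen. The 4 groups of 4 libraries were p53 KO cells given 5 µM GCN2iB, p53 KO cells given vehicle, wild-type (WT) cells given 5 µM GCN2iB, and WT cells given vehicle. All were exposed for 48 h after 350000 cells had been seeded per well, in medium without phenol red, and the vehicle was DMSO. The KO was made by CRISPR. The labels do not say whether the KO cells are 1 clone or a pool, so p53 loss cannot be told apart from other differences between both cell populations. Nor do they say that replicates were grown apart, and the spread behind each p-value may therefore be technical.

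Total counts per library ranged from 17418072 to 39915685. Levels are in CPM, counts scaled to a common library size after TMM normalization, and differences are log2 ratios with a standard error (SE). CDKN1A, the p53 target p21 and itself excluded from the block, stood at 38.5 to 51.7 CPM in p53 KO GCN2iB, 35.4 to 43.1 in p53 KO vehicle, 375 to 501 in WT GCN2iB and 247 to 298 in WT vehicle. Replicate 4 of WT GCN2iB had the lowest CDKN1A of its group (375 CPM, against 483 to 501 in the others) and replicate 4 of p53 KO GCN2iB the highest of its group (51.7 CPM). Counts and medians were also computed without both of these libraries. The 9 luminal prostate markers, KLK3 and HOXB13 among them, were all measured, with sums of 4986 to 5361 CPM in p53 KO GCN2iB, 5337 to 5600 in p53 KO vehicle, 5341 to 5449 in WT GCN2iB and 5870 to 6275 in WT vehicle. Their part in the differences between groups was not tested. Of the other cell types' markers, the basal KRT5 and TP63 and the blood cell markers PTPRC, CD3E and HBB had a median of 0 CPM. KRT14 (2.05 to 4.26 CPM), COL1A1 (11.3 to 23.8 CPM) and VIM (3.66 to 9.30 CPM) were present at low levels. The 3 basal markers summed to 3.20 to 4.22 CPM in p53 KO GCN2iB, 3.27 to 4.26 in p53 KO vehicle, 2.05 to 2.79 in WT GCN2iB and 2.50 to 2.76 in WT vehicle. The 4 stromal markers summed to 19.2 to 28.1 CPM and the 5 blood cell markers to at most 0.379 CPM over all libraries. In bulk RNA, fewer cells of a type and less RNA per cell cannot be told apart.

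Promoters of 4 members are printed because they carry the points that follow. They are MAPK13, the member with the lowest mean of the genotype differences under both treatments, BAK1, the 1 member whose promoter holds a match to the p53 response element, and TCF19 and CCHCR1, a divergent pair whose transcripts rose with GCN2iB. Each runs from 250 bases before to 50 bases after the RefSeq start (GRCh38.p14), 5′ to 3′ on the strand of the gene. For MAPK13 (chr6:36130263-36130562, plus strand), TCF19 (chr6:31158339-31158638, plus strand) and CCHCR1 (chr6:31158148-31158447, minus strand) capitals mark GC boxes, GGGCGG on either strand. For BAK1 (chr6:33580227-33580526, minus strand) capitals mark both repeats of the p53 element.
MAPK13: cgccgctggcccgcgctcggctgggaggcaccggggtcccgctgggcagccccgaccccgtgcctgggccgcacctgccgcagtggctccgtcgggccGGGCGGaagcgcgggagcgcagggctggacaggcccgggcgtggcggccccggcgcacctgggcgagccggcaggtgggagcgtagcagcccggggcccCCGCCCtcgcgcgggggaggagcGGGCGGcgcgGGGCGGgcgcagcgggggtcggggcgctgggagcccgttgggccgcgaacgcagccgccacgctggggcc
BAK1: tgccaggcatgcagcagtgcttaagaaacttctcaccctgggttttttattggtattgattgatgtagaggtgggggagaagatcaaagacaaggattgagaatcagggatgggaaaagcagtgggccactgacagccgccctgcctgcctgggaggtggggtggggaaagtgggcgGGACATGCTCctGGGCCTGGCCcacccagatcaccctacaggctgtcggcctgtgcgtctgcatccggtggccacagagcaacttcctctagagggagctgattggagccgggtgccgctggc
TCF19: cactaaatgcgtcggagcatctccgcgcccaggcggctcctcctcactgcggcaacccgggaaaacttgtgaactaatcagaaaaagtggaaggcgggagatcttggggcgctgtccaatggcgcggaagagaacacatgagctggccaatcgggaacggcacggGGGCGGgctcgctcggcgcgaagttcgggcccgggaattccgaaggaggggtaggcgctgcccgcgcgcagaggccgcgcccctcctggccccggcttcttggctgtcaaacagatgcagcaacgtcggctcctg
CCHCR1: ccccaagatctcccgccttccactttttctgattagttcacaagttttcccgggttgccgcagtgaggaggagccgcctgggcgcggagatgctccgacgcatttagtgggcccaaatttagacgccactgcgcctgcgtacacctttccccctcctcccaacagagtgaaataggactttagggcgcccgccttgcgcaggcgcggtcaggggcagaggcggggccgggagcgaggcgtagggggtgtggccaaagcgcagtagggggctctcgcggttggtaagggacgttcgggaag
RefSeq promoters were matched for 137 of the 170 members. The p53 element, searched as a pair of 10-base repeats with 0 to 3 bases between them and at most 2 mismatches in all, none of them at the fixed C and G of a repeat, was found in 1 member promoter (0.73%), against 273 of 27305 promoters of all genes (1%). The BAK1 match spans bases 178 to 199 of its promoter, with 2 bases between the repeats and 2 mismatches. The GC box stood in 97 member promoters (70.8%), against 44.6% of all promoters, with 4 copies in MAPK13, 1 in TCF19 and 0 in CCHCR1. The ATF4 element TGATGNAA, bound by the transcription factor downstream of GCN2, stood in 1 member promoter (0.73%) and in 3.67% of all, and the cAMP response element TGACGTCA in 5 (3.65%) and in 1.98% of all. The 27305 promoters were those of RefSeq genes tested here or not, while every member had passed the filter on low counts. A match of letters is a description, and binding was not measured.

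How the block stands in p53 KO cells was described first, under each treatment. Most of its genes were slightly lower in the p53 KO cells. The median over the 170 members of log2 (p53 KO / WT) was -0.15 under GCN2iB, against 0.03 over all tested genes. Under vehicle the median was -0.21 (interquartile range -0.33 to -0.01), against 0.01 over all tested genes. Of the 170 members 126 were below 0 under GCN2iB and 129 under vehicle. Lower calls numbered 50 under GCN2iB, where 11.2% of all tested genes were called lower, and 69 under vehicle, where 12.1% were. Higher calls numbered 5 under GCN2iB (12.7% of all tested genes) and 2 under vehicle (MUC21 and MDGA1, against 9.63% of all). These shares describe how the window was chosen.

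The spread between libraries was described by each library's own median. The median over members of log2 CPM, relative to the mean of WT vehicle, was -0.18, -0.10, -0.16 and -0.02 in p53 KO GCN2iB and -0.28, -0.19, -0.21 and -0.17 in p53 KO vehicle. It was 0.04, 0.05, 0.07 and 0.02 in WT GCN2iB and -0.08, 0.03, 0.02 and 0.05 in WT vehicle. The p53 KO vehicle libraries all lay below both WT groups, and p53 KO GCN2iB replicate 4 lay above WT vehicle replicate 1. Summed CPM of the members was 9377 ± 317 in p53 KO GCN2iB and 8319 ± 305 in p53 KO vehicle, and 11003 ± 192 in WT GCN2iB and 10038 ± 351 in WT vehicle (SD, n = 4 each). The median under GCN2iB was -0.20 without the replicate 4 libraries of GCN2iB.

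**Figure D1:**
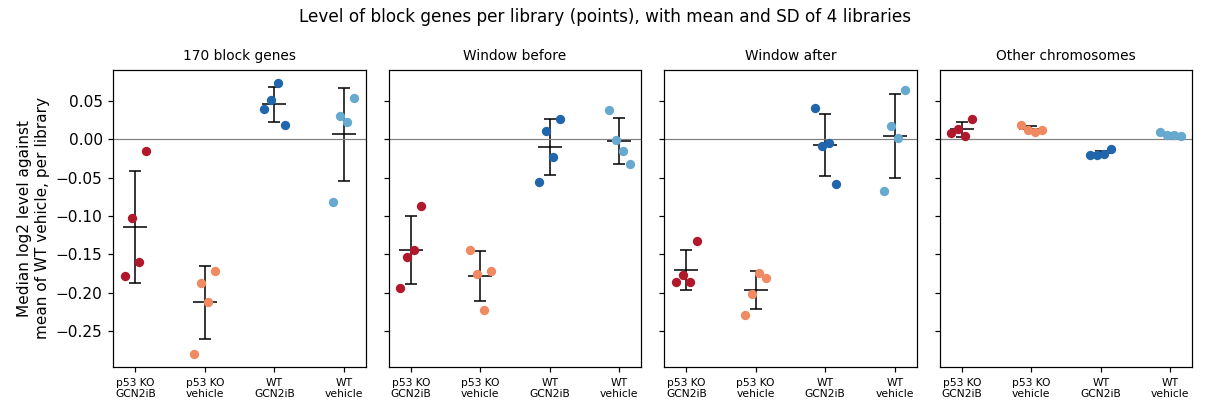
Median over genes of the log2 level of each library relative to the mean of WT vehicle (y axis), for the 170 block genes, the 10 Mb windows before and after, and all genes on other chromosomes, with groups along the x axis in the order p53 KO GCN2iB, p53 KO vehicle, WT GCN2iB and WT vehicle. Points are libraries and bars the mean and SD of 4 libraries; the block stands at -0.28 to -0.17 in p53 KO vehicle and at -0.08 to 0.05 in WT vehicle, and both neighbouring windows are lower in p53 KO libraries too.

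Members were also divided by level. Those with at least 5 CPM on average numbered 107, and their median was -0.19 under GCN2iB (94 below 0) and -0.27 under vehicle (99 below 0). The 63 members under 5 CPM had medians of -0.02 under GCN2iB (32 below 0) and 0.02 under vehicle (30 below 0). Over all tested genes with at least 5 CPM the medians were 0.01 under GCN2iB and -0.03 under vehicle.

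Among the regulators of transcription, HMGA1 stood lowest. HMGA1, an architectural protein of chromatin (ENSG00000137309, chromosome 6, 34236873 to 34246231, plus strand), had 94.2, 92.7, 84.9 and 97.0 CPM in p53 KO GCN2iB and 72.3, 82.9, 82.9 and 85.7 CPM in p53 KO vehicle. It had 174, 156, 158 and 136 CPM in WT GCN2iB and 130, 157, 151 and 159 CPM in WT vehicle. All 8 p53 KO libraries lay below all 8 WT libraries, with log2 differences of -0.76 under GCN2iB and -0.88 under vehicle (SE 0.08 each). PBX2, a homeodomain protein, stood at 44.7 ± 3.44 CPM in p53 KO GCN2iB and 65.8 ± 4.72 in WT GCN2iB, and at 45.8 ± 0.863 in p53 KO vehicle and 60.7 ± 2.42 in WT vehicle. BRD2, a reader of acetylated histones, had log2 differences of -0.09 under GCN2iB and -0.21 under vehicle (SE 0.05 each). PHF1, a partner of the Polycomb complex PRC2, had 0.10 under GCN2iB and 0.03 under vehicle (SE 0.07 each). Of 24 members in the chromatin and transcription list 11 were called lower under GCN2iB (11.2% of all tested genes) and 15 under vehicle (12.1% of all), and 0 higher (12.7% of all under GCN2iB and 9.63% under vehicle). The window was chosen by this contrast, so nothing is read from these counts.

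Among the kinases, MAPK13 had the lowest mean of the genotype differences under both treatments of the members with at least 5 CPM. Under GCN2iB alone NUDT3 stood lower (log2 -0.98), but exons of other genes cover most of its exon length, so its reads are uncertain. MAPK13, the p38 delta stress kinase (ENSG00000156711, chromosome 6, 36127809 to 36144524, plus strand), had 23.5, 20.3, 21.4 and 22.2 CPM in p53 KO GCN2iB and 21.3, 21.1, 23.3 and 23.8 CPM in p53 KO vehicle. It had 42.4, 42.2, 44.9 and 38.8 CPM in WT GCN2iB and 40.8, 44.8, 47.0 and 47.3 CPM in WT vehicle. The genotypes did not overlap, and p53 KO was lower by 1.92-fold under GCN2iB (log2 -0.94) and 2.02-fold under vehicle (log2 -1.01, SE 0.07 each). Its neighbour MAPK14, the p38 alpha kinase, was chosen after its values were seen and had log2 differences of -0.28 under GCN2iB and -0.32 under vehicle (SE 0.06 each). DDR1, a receptor tyrosine kinase for collagen, had 133, 136, 130 and 150 CPM in p53 KO GCN2iB and 121, 132, 128 and 147 CPM in p53 KO vehicle. It had 198, 204, 189 and 181 CPM in WT GCN2iB and 165, 194, 189 and 193 CPM in WT vehicle, again with no overlap, and its log2 difference was -0.49 under both treatments (SE 0.07 each).

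BAK1, MICA, GLO1 and SLC39A7 also had no overlap between genotypes. BAK1, a pore-forming promoter of apoptosis on mitochondria, stood at 26.9 ± 2.59 CPM in p53 KO GCN2iB and 34.5 ± 2.59 in WT GCN2iB, and at 28.8 ± 1.70 in p53 KO vehicle and 36.2 ± 2.25 in WT vehicle. MICA, a stress-induced ligand of the receptor NKG2D on killer cells, had log2 differences of -0.46 under GCN2iB and -0.47 under vehicle (SE 0.09 each). GLO1, which detoxifies methylglyoxal, had -0.21 under GCN2iB and -0.38 under vehicle (SE 0.06 each). SLC39A7, a zinc carrier of the endoplasmic reticulum, had -0.19 under GCN2iB and -0.23 under vehicle (SE 0.06 each). At the other end stood CCHCR1, a coiled-coil protein, at 0.01 under GCN2iB and 0.04 under vehicle (SE 0.08 each), and MDC1, an adaptor at DNA breaks, at 0.00 under GCN2iB and 0.10 under vehicle (SE 0.09 each). B3GALT4, a glycosyltransferase of gangliosides, had 0.13 under GCN2iB and 0.31 under vehicle (SE 0.14 each). DXO, an enzyme that removes incomplete RNA caps, had 0.10 under GCN2iB and -0.01 under vehicle (SE 0.10 each). C4A and C4B, near-identical complement genes, were under 0.5 CPM in every library and their reads could be split by the authors' counting, so they are uncertain.

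Over the block, 17 of 170 members (10%) had all 8 p53 KO libraries below all 8 WT libraries, where 4.4% of all tested genes did, and 1 member had the reverse, where 2.86% did. Outside the window, 11.4% of the 316 tested genes from 0 to 60 Mb of chromosome 6 lay below in this way and 2.53% above. The 17 included PRR3, BAG6, RXRB, ANKS1A, TBC1D22B and RNF8 beside those named above. The 1 member above was MDGA1, a membrane glycoprotein of neurons, named after its values were seen, with 4.28 ± 0.435 CPM in p53 KO GCN2iB and 3.08 ± 0.457 in WT GCN2iB, and 4.42 ± 0.383 in p53 KO vehicle and 2.55 ± 0.496 in WT vehicle (SD, n = 4 each). Of the 50 members lower under GCN2iB 41 were also lower under vehicle (82% of the 50 and 59.4% of the 69).

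**Figure D2:**
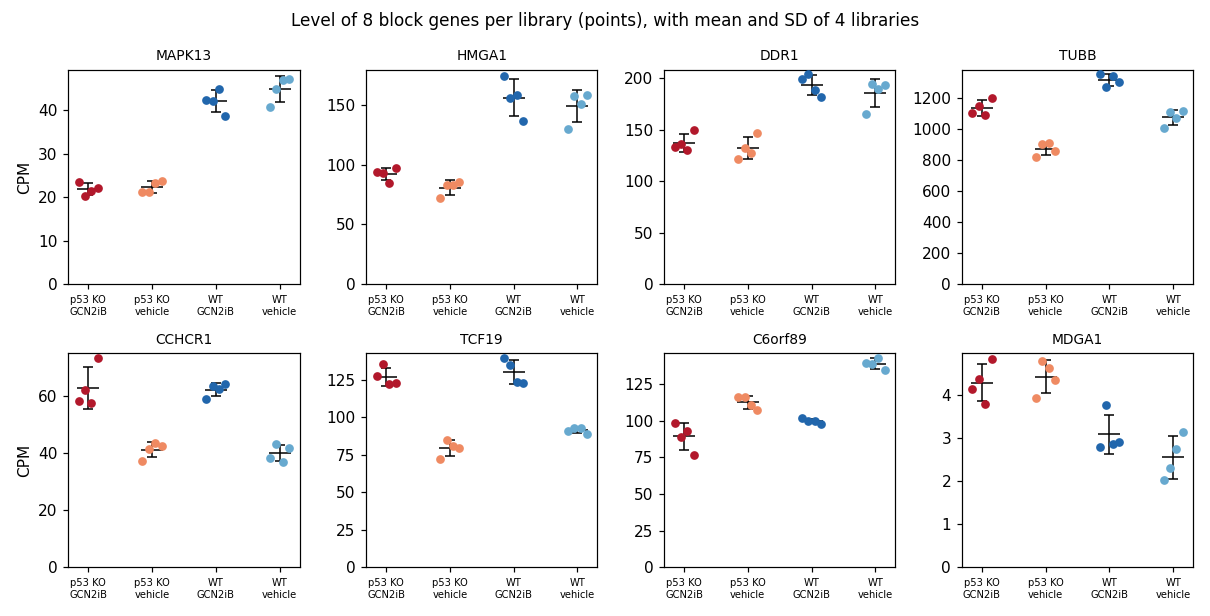
Level in CPM (y axis, from 0) of 8 members in every library, with groups along the x axis in the order p53 KO GCN2iB, p53 KO vehicle, WT GCN2iB and WT vehicle. Points are libraries and bars the mean and SD of 4; MAPK13, HMGA1 and DDR1 differ by genotype with no overlap, TUBB, CCHCR1 and TCF19 are higher under GCN2iB in both genotypes, C6orf89 is lower under it, and MDGA1 is the member higher in all p53 KO libraries.

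Inside the window the median was below 0 in every 1 Mb step, under both treatments. It ran under GCN2iB from -0.33 (34 to 35 Mb, 13 genes) to -0.05 (37 to 38 Mb, 10 genes), and under vehicle from -0.36 (38 to 39 Mb, 4 genes) to -0.06 (31 to 32 Mb, 45 genes). Between 34 and 35 Mb 12 of 13 members were below 0 under GCN2iB and all 13 under vehicle. The 5 members nearest to the lower edge ran from -0.44 to -0.07 under GCN2iB and from -0.71 to 0.17 under vehicle. Among them TRIM26, a ubiquitin ligase, had -0.44 under GCN2iB and -0.34 under vehicle (SE 0.06 each). Near the upper edge on the inside MOCS1, of molybdenum cofactor synthesis, had -0.31 under GCN2iB and -0.36 under vehicle (SE 0.08 each). The member nearest to that edge, ENSG00000180211, has no symbol in the table and stood the other way, at 0.29 under GCN2iB and 0.22 under vehicle (SE 0.15 each). On the outside NFYA, a subunit of the CCAAT-binding factor, had -0.23 under GCN2iB and -0.17 under vehicle (SE 0.06 each).

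The tested genes around the window were described in the same way. Over the 316 tested genes from 0 to 60 Mb outside the window the median was -0.16 under GCN2iB and -0.20 under vehicle, and over the 379 past 60 Mb it was 0.05 under GCN2iB and 0.00 under vehicle. The window of 194 tested genes, excluded families included, had medians of -0.17 under GCN2iB and -0.21 under vehicle, and the 10 Mb bins from 0 to 60 Mb around it had -0.19 to -0.06 under GCN2iB and -0.21 to -0.13 under vehicle. Farther along, the bin of 70 to 80 Mb (32 genes) had -0.18 under GCN2iB and -0.20 under vehicle, and that of 100 to 110 Mb (36 genes) had 0.07 under GCN2iB and 0.06 under vehicle. Among 268 bins of 10 Mb over all chromosomes with at least 20 tested genes, 7 had a lower median than the window under GCN2iB and 8 under vehicle. The lowest under vehicle was a bin of chromosome 5 from 70 to 80 Mb, at -0.29.

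**Figure D3:**
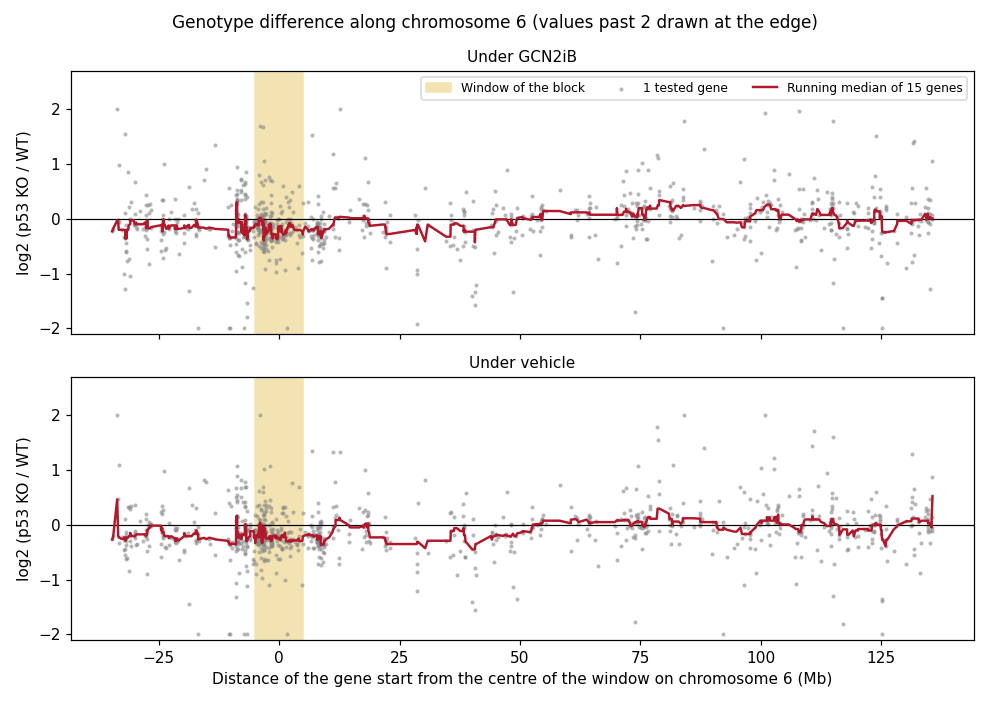
Log2 (p53 KO / WT) of every tested gene of chromosome 6 (grey points) and its running median over 15 genes (red line) against the distance of the gene start from the centre of the window in Mb, under GCN2iB (top) and vehicle (bottom), with the window shaded and values past 2 drawn at the edge. The running median lies below 0 at 96.9% of the genes in the window under GCN2iB and 99.5% under vehicle, is below 0 at 89.2% of the genes from 0 to 30 Mb under each treatment, and past 100 Mb at 33.1% under GCN2iB and 32.4% under vehicle.

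GCN2iB against vehicle in p53 KO cells asked which block genes answer the inhibitor when p53 is absent. This contrast did not choose the members, but its libraries also enter the p53 KO against WT differences that did. It is therefore not independent of that choice. In edgeR's quasi-likelihood test adjusted by Benjamini-Hochberg over all tested genes, 32 of 170 members rose (18.8%), where 11.4% of all tested genes rose, and 9 fell (5.29%), where 8.71% of all fell. The median change was 0.06, against -0.01 over all genes. Without replicate 4 of both GCN2iB groups 26 were higher and 10 lower. With library totals as the only scaling the counts were 25 higher (7.55% of all tested genes) and 15 lower (14.4% of all). The median was then -0.01, against -0.08 over all genes. The 9 lower calls came to 5 without p53 KO vehicle replicate 3.

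GCN2iB against vehicle in WT cells put the same question with p53 present, and its libraries too enter the differences that chose the window. There, 32 of 170 members rose (18.8%), where 11.6% of all tested genes rose, and 14 fell (8.24%), where 13.6% of all fell, with a median change of 0.06 against -0.03 over all genes. With library totals 28 were higher (10.1% of all tested genes) and 17 lower (16% of all). Without replicate 4 of both GCN2iB groups 34 were higher and 12 lower. The 14 lower calls came to 7 without WT vehicle replicate 2, 7 without WT vehicle replicate 3, 9 without WT GCN2iB replicate 2 and 6 without WT GCN2iB replicate 3. Both contrasts share no library, and 26 members rose in both (81.2% of each list). Falls were shared by 3 members, C6orf89, KCTD20 and ZFAND3 (33.3% of those in p53 KO and 21.4% of those in WT), and 0 members changed in opposite directions.

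The median level of the members was above that of all tested genes, so calls were also counted among higher genes. Among members with at least 5 CPM 29.9% rose in p53 KO cells and 29% in WT cells, and among all tested genes with at least 5 CPM 17.7% did in p53 KO cells and 16.2% in WT cells. By position, from 30 to 31 Mb (27 members) the median change was 0.14 in p53 KO and 0.20 in WT, and from 38 to 39 Mb (4 members) it was -0.20 in p53 KO and -0.23 in WT.

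**Figure D4:**
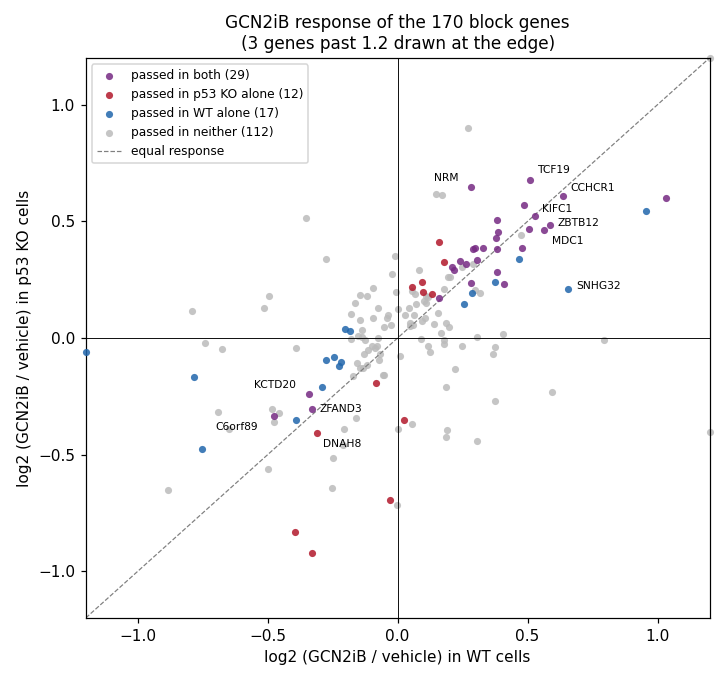
Log2 (GCN2iB / vehicle) of the 170 members in p53 KO cells (y axis) and WT cells (x axis), coloured by the genotype in which the change passed the test, with the line of equal response dashed and 3 genes past 1.2 drawn at the edge. Most coloured points lie in the upper right, near the dashed line: 29 members passed in both genotypes, 12 in p53 KO and 17 in WT, and 112 in neither.

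Among the genes of DNA repair and chromosome segregation, of 5 members 3 rose in both genotypes, where 11.4% of all tested genes rose in p53 KO and 11.6% in WT, and 0 fell. The list's median change was 0.43 in p53 KO and 0.38 in WT, against -0.01 in p53 KO and -0.03 in WT over all genes. KIFC1, a kinesin that gathers spindle poles (ENSG00000237649, chromosome 6, 33391536 to 33409924, plus strand), had 83.2, 85.9, 79.1 and 79.0 CPM in p53 KO GCN2iB, against 51.6, 58.8, 59.6 and 57.9 CPM in p53 KO vehicle. It had 114, 111, 105 and 99.1 CPM in WT GCN2iB, against 69.3, 79.1, 74.3 and 74.9 CPM in WT vehicle. Treated and vehicle libraries did not overlap in either genotype, and the rise was 1.44-fold in each (log2 0.52, adjusted p = 4.86e-06 in p53 KO; log2 0.53, adjusted p = 3.02e-06 in WT, SE 0.06 each, edgeR). MDC1 had 181, 193, 196 and 138 CPM in p53 KO GCN2iB against 130, 134, 133 and 116 CPM in p53 KO vehicle, a rise of 1.38-fold (adjusted p = 0.000894, edgeR). In WT cells it had 182, 184, 181 and 161 CPM with GCN2iB against 128, 126, 121 and 102 CPM with vehicle, a rise of 1.48-fold (adjusted p = 0.000104, edgeR). Its lowest library was replicate 4 in each of the 4 groups, treated and vehicle. FANCE, of the Fanconi anaemia core complex and named after its values were seen, rose on the log2 scale by 0.43 in p53 KO and 0.38 in WT. RNF8, a ubiquitin ligase at DNA breaks, stood at 0.10 in p53 KO and -0.04 in WT without a call, as did MSH5, a mismatch repair homologue, at -0.00 in p53 KO and 0.09 in WT.

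In the chromatin and transcription list 4 of 24 members rose and 1 fell in p53 KO cells, where 11.4% of all tested genes rose and 8.71% fell. In WT cells 5 rose and 3 fell, where 11.6% of all rose and 13.6% fell. Its median was 0.15 in p53 KO and 0.10 in WT. TCF19, a PHD-finger protein of the cell cycle (ENSG00000137310, chromosome 6, 31158542 to 31167159, plus strand), had 127, 136, 122 and 123 CPM in p53 KO GCN2iB, against 72.2, 84.8, 80.9 and 79.9 CPM in p53 KO vehicle. It had 140, 135, 123 and 123 CPM in WT GCN2iB, against 91.0, 93.0, 92.9 and 88.9 CPM in WT vehicle. No treated library overlapped its vehicle group, and the rises were 1.6-fold in p53 KO (log2 0.68, adjusted p = 7.05e-08) and 1.43-fold in WT (log2 0.51, adjusted p = 3.02e-06, SE 0.06 each, edgeR). ZBTB12, a zinc finger protein, rose to 14.9 ± 1.49 CPM in p53 KO GCN2iB, against 10.7 ± 0.244 in p53 KO vehicle, and to 17.4 ± 1.65 CPM in WT GCN2iB, against 11.6 ± 0.294 in WT vehicle. EHMT2, a methyltransferase of histone H3, also rose, by 0.38 in p53 KO and 0.38 in WT, and was named after its values were seen. SPDEF, an ETS factor of prostate epithelium, fell in WT cells (log2 -0.29, SE 0.08, adjusted p = 0.0116, and 0.0557 without WT GCN2iB replicate 3). In p53 KO cells SPDEF stood at -0.21 (adjusted p = 0.0742, edgeR). It passed there as lower with GC and length trends removed (2.53e-06), library totals (0.0103), a mean of at least 50 counts (0.0378) and no count filter (0.0301). The same held without p53 KO GCN2iB replicate 4 (0.00963) and without p53 KO vehicle replicate 1 (0.0158). HMGA1 stood at 0.19 in p53 KO and 0.07 in WT without a call, and BRD2 at 0.08 in p53 KO (past the test with GC and length trends removed, adjusted p = 0.0135) and -0.04 in WT.

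TCF19 and CCHCR1 start 304 bases apart on opposite strands, and their printed promoters overlap. CCHCR1 (ENSG00000204536, chromosome 6, 31142439 to 31158238, minus strand) had 58.2, 62.3, 57.7 and 73.4 CPM in p53 KO GCN2iB, against 37.4, 41.6, 43.7 and 42.7 CPM in p53 KO vehicle. It had 59.2, 63.5, 62.6 and 64.1 CPM in WT GCN2iB, against 38.5, 43.1, 36.9 and 41.9 CPM in WT vehicle. Again no treated library overlapped its vehicle group (log2 0.61, adjusted p = 6.08e-06 in p53 KO, and log2 0.64, adjusted p = 2.98e-06 in WT, SE 0.08 each, edgeR). Pairs of members on opposite strands were counted where their starts lie at most 1000 bases apart and do not overlap. Pairs that overlap at their starts, such as GNL1 with PRR3, were left out. Of 8 pairs counted, TCF19 with CCHCR1 was the 1 pair in which both genes rose in both genotypes, and in 2 pairs 1 gene did. One of those is EHMT2 with C2, the other RNF5 with AGPAT1.

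The cytoskeleton, membrane and nuclear envelope list had 4 of 13 members higher in p53 KO (11.4% of all tested genes) and 5 in WT (11.6% of all), and 0 lower. Its median was 0.13 in p53 KO and 0.11 in WT. TUBB, a beta tubulin and the member with the highest level (ENSG00000196230, chromosome 6, 30720201 to 30725426, plus strand), had 1101, 1147, 1090 and 1200 CPM in p53 KO GCN2iB, against 820, 901, 907 and 859 CPM in p53 KO vehicle. It had 1354, 1268, 1342 and 1301 CPM in WT GCN2iB, against 1007, 1109, 1071 and 1114 CPM in WT vehicle. The rises were 1.3-fold in p53 KO (adjusted p = 3.46e-05) and 1.22-fold in WT (adjusted p = 0.000476, edgeR), with no overlap. Processed copies of TUBB, HMGA1 and RNF5 are known elsewhere in the genome, so their counts may include misassigned reads.

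NRM, the nuclear membrane protein nurim, had 17.0, 17.5, 18.9 and 17.6 CPM in p53 KO GCN2iB, against 10.2, 11.7, 12.5 and 10.9 CPM in p53 KO vehicle (log2 0.65, SE 0.09, adjusted p = 1.72e-05, edgeR). In WT cells it had 19.3, 17.2, 16.9 and 16.2 CPM with GCN2iB against 13.5, 15.4, 12.3 and 15.8 CPM with vehicle (log2 0.28, adjusted p = 0.0205, edgeR). That WT call ended without WT vehicle replicate 3 (0.0771), without WT GCN2iB replicate 1 (0.0597) and with GC and length trends removed (0.112). FLOT1, a scaffold of membrane rafts, rose by 0.38 in p53 KO and 0.30 in WT. MTCH1, of the outer mitochondrial membrane, stood at 0.10 in p53 KO and 0.03 in WT without a call. NRM, MDC1, TUBB and FLOT1 are consecutive among the members with at least 5 CPM, and all 4 rose in both genotypes.

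For RNA processing and translation, 6 of 16 members rose in p53 KO cells (11.4% of all tested genes) and 0 fell (8.71% of all), and in WT cells 4 rose (11.6% of all) and 1 fell (13.6% of all). The median change was 0.12 in p53 KO and 0.06 in WT. SRSF3, a splicing factor, had 471, 490, 490 and 555 CPM in p53 KO GCN2iB, against 442, 418, 399 and 444 CPM in p53 KO vehicle, and 516, 563, 609 and 596 CPM in WT GCN2iB, against 491, 461, 462 and 466 CPM in WT vehicle. Its groups did not overlap in either genotype, and it rose by 0.24 in p53 KO (adjusted p = 0.00976) and 0.28 in WT (adjusted p = 0.00213, edgeR). PRRC2A, an RNA-binding protein, rose by 0.23 in p53 KO cells (adjusted p = 0.00847, and 0.0596 with library totals) and by 0.41 in WT cells (adjusted p = 3.42e-05, edgeR). LSM2, of the Sm-like ring of the spliceosome, and SNRPC, of the U1 particle, were named after their values were seen. LSM2 rose by 0.57 in p53 KO and 0.49 in WT, and SNRPC by 0.51 in p53 KO and 0.38 in WT. ABCF1, a ribosome-associated ATPase, stood at 0.09 in p53 KO and -0.10 in WT without a call.

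The protein folding, ubiquitin and traffic list held rises and falls. Of 16 members 7 rose and 2 fell in p53 KO, where 11.4% of all tested genes rose and 8.71% fell, and 6 rose and 2 fell in WT, where 11.6% of all rose and 13.6% fell. The list's falls were thus near the share over all genes. Its median was 0.17 in p53 KO and 0.13 in WT. KCTD20, a BTB-domain protein, fell to 98.9 ± 7.96 CPM in p53 KO GCN2iB, against 117 ± 5.12 in p53 KO vehicle (log2 -0.24, adjusted p = 0.0098), and to 121 ± 5.82 in WT GCN2iB, against 154 ± 8.18 in WT vehicle (log2 -0.34, adjusted p = 0.000416, edgeR). ZFAND3, a zinc finger protein, fell by 0.30 in p53 KO and 0.33 in WT on the log2 scale. BAG6, a chaperone of membrane proteins, stood at 0.16 in p53 KO and 0.10 in WT and CUTA at 0.20 in p53 KO and -0.00 in WT, without a call. BAG6 passed in p53 KO cells with GC and length trends removed (adjusted p = 0.0059) and without p53 KO vehicle replicate 4 (0.0433).

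C6orf89, a gene of little described function in no list, fell in both genotypes. It had 98.4, 89.1, 93.2 and 76.7 CPM in p53 KO GCN2iB, against 116, 116, 110 and 107 CPM in p53 KO vehicle (log2 -0.34, SE 0.06, adjusted p = 0.000702, edgeR). In WT cells it had 102, 99.7, 100 and 97.6 CPM with GCN2iB, against 140, 139, 143 and 134 CPM with vehicle (log2 -0.48, SE 0.06, adjusted p = 1.17e-05, edgeR). DNAH8, an axonemal dynein, fell in p53 KO cells (log2 -0.41, SE 0.13, adjusted p = 0.0252, edgeR), a call that ended without p53 KO vehicle replicate 1 or 3 (0.0912 and 0.0583), without p53 KO GCN2iB replicate 1 or 4 (0.0543 and 0.0719) and with GC and length trends removed (0.0579). It stood at -0.31 in WT cells (adjusted p = 0.0647), and passed there with library totals (0.049) and without WT vehicle replicate 4 (0.0191). BLTP3A, a lipid transfer protein, fell in WT cells (log2 -0.39, SE 0.13, adjusted p = 0.0286), and this call ended without any 1 of the WT libraries (0.0526 to 0.113) except WT vehicle replicate 4, and without p53 KO vehicle replicate 1 (0.0571). It stood at -0.35 in p53 KO cells (adjusted p = 0.0571), and passed there with DESeq2 (0.0267), limma voom (0.0366), library totals (0.0396), a mean of at least 50 counts (0.0261), no count filter (0.000406) and GC and length trends removed (0.0168). It also passed there without p53 KO GCN2iB replicate 1 or 3 (0.0346 and 0.0439), p53 KO vehicle replicate 4 (0.0358) or WT vehicle replicate 4 (0.0338).

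In the list of kinases, phosphatases and signalling, 4 of 17 members rose and 1 fell with GCN2iB in p53 KO cells, where 11.4% of all tested genes rose and 8.71% fell. In WT cells 2 rose, near the 11.6% of all, and 0 fell, where 13.6% of all did. The list's median was -0.01 in p53 KO and 0.06 in WT. PPP1R10, a nuclear regulator of protein phosphatase 1, rose to 221 ± 5.45 CPM in p53 KO GCN2iB, against 181 ± 2.43 in p53 KO vehicle, and to 240 ± 10.0 CPM in WT GCN2iB, against 207 ± 6.90 in WT vehicle (adjusted p = 0.000288 in p53 KO and 0.00345 in WT, edgeR). MAPK13 stood at -0.03 in p53 KO and -0.10 in WT, DDR1 at 0.06 in p53 KO and 0.06 in WT, and RGL2, an exchange factor for Ral, at 0.07 in p53 KO and 0.09 in WT, without a call in either.

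In metabolism and transport 3 of 16 members rose in each genotype, where 11.4% of all tested genes rose in p53 KO and 11.6% in WT. None fell in p53 KO (8.71% of all) and 2 fell in WT, near the 13.6% of all. The median was 0.04 in p53 KO and 0.05 in WT. UQCC2, an assembly factor of respiratory complex III, had 121, 125, 119 and 163 CPM in p53 KO GCN2iB, against 85.4, 97.7, 96.7 and 105 CPM in p53 KO vehicle (log2 0.46, adjusted p = 0.000845, edgeR), and rose by 0.39 in WT cells (adjusted p = 0.00272, edgeR). NUDT3, a hydrolase of inositol pyrophosphates, rose by 1.52-fold in p53 KO (log2 0.60, SE 0.15) and 2.04-fold in WT (log2 1.03, SE 0.14). Exons of other genes cover 95.9% of its exon length, so its reads are uncertain, as are those of UQCC2 (24.1%) and SNHG32 (29.1%). SNHG32, a host gene of small nucleolar RNAs, rose in WT cells (log2 0.66, SE 0.13, adjusted p = 0.00126) and stood at 0.21 in p53 KO cells (adjusted p = 0.295, edgeR). GLO1 and SLC39A7 stood between -0.14 and 0.03 without a call. BAK1 stood at -0.09 in p53 KO and -0.07 in WT without a call. With GC and length trends removed GLO1 (adjusted p = 0.03) and SLC39A7 (0.0358) passed as lower in WT cells and BAK1 (0.0258) as lower in p53 KO cells, and GLO1 passed in WT with library totals too (0.0348). Of 5 members of the innate immunity and complement list, MICA, AGER and C2 among them, 0 were called in either genotype.

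Whether the genotypes answered GCN2iB differently was tested by the interaction. It uses the same libraries as the p53 KO against WT differences by which the window was chosen. In edgeR's quasi-likelihood test 0 of 170 members passed, where 0.00539% of all tested genes, a single gene, did, and 16 members had an unadjusted p under 0.05, as had 1754 of the 18549 tested genes. With DESeq2 and with limma voom 0 members passed as well. The member with the smallest adjusted p was DAXX, a histone chaperone, whose response was higher by 0.31 (log2) in p53 KO cells than in WT cells (adjusted p = 0.324, edgeR, SE 0.09). The difference was 0.17 for TCF19 (SE 0.09), 0.36 for NRM (SE 0.12) and -0.45 for SNHG32 (SE 0.19), none past the test. The median difference was 0.05 over the members and 0.02 over all tested genes.

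Some features of the members played no part in choosing the window and are given as a description. Their median GC content was 54.6%, against 48.8% over all tested genes, their median level 18.1 CPM against 11.5, and their median exon length 3132 bases against 4145. Starts of neighbouring members lay a median of 18.9 kb apart, against 48.6 kb for all tested genes. Exons of other genes covered over 20% of the exon length in 33 members (19.4%), against 11.9% of all. With trends of GC content and length removed, the median genotype difference was -0.13 under GCN2iB and -0.19 under vehicle (0.02 over all genes in each), and the median GCN2iB response was 0.03 in p53 KO and 0.04 in WT (-0.02 over all genes in each).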

How the data were processed

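RNA of 16 LNCaP libraries was sequenced in paired ends. The authors deposited whole-number read counts per gene for 62754 genes, with no normalization. Per the submitters' processing notes, GRCh38 was the build, and featureCounts, HISAT2, Trim Galore and DESeq2 are listed there as tools. Versions, annotation release and strand: not given in the sources used here, so antisense partners cannot be told apart. Titles matched all 16 columns to samples, with 0 columns left over and 0 pairs of identical columns. Positions came from GENCODE release 29 for 58261 genes.

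The tests ran in edgeR 4.0.16 under R 4.3.3 (filterByExpr, TMM, robust quasi-likelihood, 1 term per group over all 16 libraries, two-sided, Benjamini-Hochberg over 18549 genes, threshold 0.05). The SE of a log2 ratio is its size over the root of F. Per-library medians used log2 CPM with a prior count of 2. Alternatives used DESeq2 1.42.0, limma 3.58.1, other scalings and filters, the compared groups alone, the replicate block, a spline on GC content and length with 5 degrees of freedom, other window edges, and each library left out. The tests were tested on simulated data with 200 changed genes. Plots used Python 3.11.15 and matplotlib 3.10.9.

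The members, role lists and rule for named genes were chosen with earlier results of these data known. The rule names up to 3 members per role list by level, up to 4 rises and 4 falls per GCN2iB contrast and 5 members at each end of the genotype difference with at least 5 CPM, and genes near the window edges, leaving out clones, pseudogenes, antisense and readthrough genes and IDs without a symbol. Roles were given to 113 members and 57 had none. The levels of the deleted gene and of some other genes are not reported here.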

Additional observations from a re-analysis of the deposited data

Results flagged for a closer look

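In 172 groups of 4 values, those of 41 genes and of the members' median and summed CPM in each of 4 groups, 3 libraries stood apart from the rest of their group. Chance alone sets apart about 1 in 20 such groups. UQCC2 was at 163 CPM in p53 KO GCN2iB replicate 4 and at 119 to 125 CPM in the others of that group. MDC1 was at 161 CPM in WT GCN2iB replicate 4 and at 181 to 184 CPM in the others. DDR1 was at 165 CPM in WT vehicle replicate 1 and at 189 to 194 CPM in the others.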

How the results depend on the processing

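Under each alternative the members' medians moved by less than the larger of the SDs between libraries of the groups compared (0.073 in p53 KO GCN2iB, 0.0475 in p53 KO vehicle, 0.0227 in WT GCN2iB and 0.06 in WT vehicle), though some moved by more than the smaller. Their sign changed in 2 places. The first was GCN2iB in p53 KO with library totals (-0.01, main value 0.06). The median over all tested genes was then -0.08 (main value -0.01). The second was the interaction with 1 library left out (lowest -0.01, main value 0.05). With library totals, members lower under GCN2iB in p53 KO cells numbered 15 (main count 9), where 14.4% of all tested genes were lower. Members higher in p53 KO under vehicle numbered 5 (main count 2), where 13.3% of all were higher. With GC and length trends removed these were 17 (13.7% of all tested genes) and 6 (15.7% of all). Members higher in p53 KO under GCN2iB were then 8 (17.5% of all, main count 5). That last count was 3 with DESeq2 size factors (11.4% of all), with no count filter (4.82% of all) and with voom (12.4% of all). It was 3 without the replicate 4 libraries of GCN2iB and 1 with the compared groups alone. With the filter at a mean of 50 counts it was 2 (13.9% of all). Under vehicle the same filter, and the compared groups alone, each gave 1 member higher in p53 KO. SPDEF turned to 0.12 in p53 KO against WT under GCN2iB with GC and length trends removed, and to 0.12 with the block as well (main value -0.02). The causes were not tested.

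Leaving out 1 library gave ranges of 25 to 37 higher and 5 to 10 lower for GCN2iB in p53 KO, and 25 to 35 higher and 6 to 15 lower in WT. For p53 KO against WT they were 1 to 5 higher and 45 to 59 lower under GCN2iB, and 2 to 3 higher and 58 to 79 lower under vehicle. The medians ranged from 0.05 to 0.09 and 0.03 to 0.09 for GCN2iB in p53 KO and WT, -0.19 to -0.15 and -0.24 to -0.19 for p53 KO against WT under GCN2iB and vehicle, and -0.01 to 0.06 for the interaction, which had 0 calls in each direction. Over the genes named, 5320 values kept their direction and call, 52 lost a call, 115 gained one and 2 reversed.

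The replicate numbers were not treated as pairs in the main fit, though libraries of the same number were somewhat alike. Of 24 same-number pairs of libraries 12 had residuals correlated above 0.1 (from -0.06 to 0.62). The median was 0.09, against -0.04 for pairs of other numbers, and 11 of 16 libraries correlated best with their own number. The main tests do not take up this likeness. With replicate number as a block, GCN2iB gave 44 higher (15.4% of all tested genes) and 13 lower (13.1% of all) in p53 KO. In WT it gave 38 higher (15.4% of all) and 20 lower (17.7% of all). For p53 KO against WT the block gave 5 higher (16.3% of all) and 64 lower (14.9% of all) under GCN2iB. Under vehicle it gave 3 higher (12.4% of all) and 82 lower (15.7% of all). With the block and GC and length trends removed, lower calls with GCN2iB were 17 in p53 KO (15.8% of all) and 22 in WT (18.4% of all). Higher calls in p53 KO against WT were then 8 under GCN2iB (19.4% of all) and 5 under vehicle (17.6% of all). The interaction called 1 member higher (0.667% of all) and 1 lower (0.385% of all). With the block alone, some named genes passed in edgeR for GCN2iB against vehicle that had no call in the main fit. In p53 KO BLTP3A (adjusted p = 3.03e-05), SPDEF (0.00703) and B3GALT4 (0.0286) passed as lower, and CUTA (0.0172), PHF1 (0.0346) and BAG6 (0.0384) as higher. In WT DNAH8 (0.0192) and GLO1 (0.0221) passed as lower. Over all genes the interaction called 1 gene, 19 higher and 19 lower with DESeq2, and 35 higher and 26 lower with the block.

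Depth and low counts limit 63 members under 5 CPM, and 221 further genes of the window, beside the excluded symbols, were not tested. An uncalled member may still differ by less than these libraries can show.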

Other observations

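The excluded families of the window were looked at as a range only. Of 24 such genes 12 were called lower in p53 KO under GCN2iB (11.2% of all tested genes) and 13 under vehicle (12.1% of all), with medians of -0.33 under GCN2iB and -0.34 under vehicle. The 7 tested HLA genes had medians of -0.43 under GCN2iB and -0.60 under vehicle. In the 10 Mb before the block the median genotype difference was -0.14 under GCN2iB and -0.19 under vehicle over 102 tested genes, and in the window after it -0.19 under GCN2iB and -0.21 under vehicle over 83 genes.

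The median GCN2iB response over the 102 genes before the block was 0.08 in p53 KO and -0.02 in WT, and over the 83 genes after it 0.00 in p53 KO and -0.05 in WT, against 0.06 in p53 KO and 0.06 in WT over the block. The difference between windows was not tested.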
